A study of Mus musculus with 6 samples.

Results

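WNT signalling genes were examined in fetal mouse ovaries labelled as Dmrt1 knockout and in wild-type ovaries of the same age. The set holds 44 genes that encode WNT ligands, their receptors and coreceptors, secreted antagonists, the intracellular machinery around beta-catenin, and target genes. Each gene was read through the brightest probe set, by mean over the 6 arrays, among those whose platform annotation names that gene alone, and the choice used no difference between groups. Such a probe set was found for 43 of the 44 members, out of 18193 genes that could be read in this way, and Tcf7 was not analysed here. The brightest probe set passed the filter on dim values, a log2 intensity of at least 4 on at least 3 of the 6 arrays, for 35 members.

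The knockout group, labelled as lacking Dmrt1 and called conditional in the study's title, consisted of 3 arrays of ovaries taken at E15.5. The wild-type group consisted of 3 arrays of ovaries of the same embryonic day. Dmrt1 encodes a DM domain transcription factor with known roles in fetal germ cells and in the adult testis. The sources used here give neither the strain, nor the Cre driver and the cells it acts in, nor whether embryos were pooled, and replicates are not said to be separate animals. All p-values therefore measure only the spread between these arrays, which may be technical.

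WNT proteins are secreted, lipid-modified ligands. In the canonical branch they bind a Frizzled receptor together with LRP5 or LRP6, which stops a complex of AXIN, APC and kinases from destroying beta-catenin, so that beta-catenin can enter the nucleus and act through TCF and LEF factors. In the other branches, WNT5A-type ligands act through ROR and other receptors on cell polarity and movement. In the mammalian fetal ovary, R-spondin 1, WNT4 and beta-catenin are known for supporting ovarian differentiation against the testis programme.

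The promoters of Ror1, Sp5 and Axin2 are shown, Ror1 because it had the largest difference among the tested members and Sp5 and Axin2 because they are standard readouts of beta-catenin activity. Each run is the 250 bases before the RefSeq transcript start in GRCm38.p6, on the plus strand, and capitals mark a match to the TCF/LEF core motif CTTTGAT on either strand.
Ror1, chr4:100095541-100095790: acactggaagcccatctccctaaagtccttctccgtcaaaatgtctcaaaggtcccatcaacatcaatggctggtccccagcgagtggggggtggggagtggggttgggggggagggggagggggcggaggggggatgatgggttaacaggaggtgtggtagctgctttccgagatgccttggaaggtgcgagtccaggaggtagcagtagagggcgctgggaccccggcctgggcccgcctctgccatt
Sp5, chr2:70474673-70474922: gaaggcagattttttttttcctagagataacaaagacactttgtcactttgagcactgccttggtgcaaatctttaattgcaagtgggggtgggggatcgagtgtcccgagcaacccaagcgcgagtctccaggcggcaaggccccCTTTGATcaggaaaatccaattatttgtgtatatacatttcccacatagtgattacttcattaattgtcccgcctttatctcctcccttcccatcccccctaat
Axin2, chr11:108920099-108920348: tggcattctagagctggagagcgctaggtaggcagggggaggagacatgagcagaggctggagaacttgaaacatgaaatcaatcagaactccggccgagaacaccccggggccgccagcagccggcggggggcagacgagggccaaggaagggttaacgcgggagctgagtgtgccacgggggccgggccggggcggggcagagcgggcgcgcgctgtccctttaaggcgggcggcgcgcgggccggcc
The Sp5 window holds 1 match, which begins 104 bases before the start, and the other 2 windows hold 0. RefSeq promoter windows were matched for 28 of the 44 members, as 38 windows, and the motif was present in 3 of them, 1 each of Sp5, Wnt5b and Wnt11. It was present in 1053 of all 32851 windows (3.21%). The motif ACANTGT, the centre of the palindrome recognised by DMRT1, which reads the same on both strands, was present in 0 of the 38 member windows and in 6.47% of all windows. These matches describe the letters in the windows and show neither binding nor its absence.

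Each probe set has 1 linear intensity per array, made with GCRMA, and differences below are on the log2 scale as knockout minus wild type. Where 3 intensities of a group are listed, they stand in the order of replicates 1, 2 and 3. The median intensity of an array lay between 13.2 and 13.4 for knockout and between 14.4 and 14.7 for wild type, and the median log2 difference over all tested genes was 0.02. Xist, which silences an X chromosome in female cells, had an intensity of 3.41 on knockout replicate 1. The other 2 knockout arrays had 1008 and 1090 and the wild-type arrays 2534 to 2718. Calls among the members and other pathway genes are therefore also given without knockout replicate 1. Calls among cell type markers are given with all 6 arrays only. Eif2s3y, Kdm5d and Uty, which lie on the Y chromosome, were under the filter level on all 6 arrays, with intensities of 3.62, 3.41 and 3.08 on knockout replicate 1. Dmrt1 lay under the filter level on all 6 arrays (intensities of 5.97 to 8.55 in knockout, against 8.47 to 13.0 in wild type), so it gives no check of the labels. Of 9 stroma and mesenchyme markers, 8 had a negative difference and 0 passed, and their summed intensity was 34342 to 36572 in knockout, against 38943 to 43057 in wild type. For 9 endothelial markers it was 1970 to 2583 in knockout, against 2738 to 3088 in wild type, with Pecam1 and Cdh5 under the filter level on every array. Of the 7 endothelial markers tested, 5 had a negative difference and Flt1 and Tek fell, while Tie1 (0.06), Esam (0.00) and Cldn5 (-0.14) had overlapping groups. All 9 leukocyte markers had a negative difference, with a median of -0.33, and Ptprc and Mrc1 fell, though the sums overlapped (7144 to 11061 in knockout, against 9860 to 12009 in wild type). Pregranulosa markers, among them Wnt4, Rspo1 and Lgr5, summed to 9018 to 9743 in knockout, against 8514 to 8877 in wild type (8 markers, 0 passed). Surface epithelium markers summed to 17494 to 19472 in knockout, against 16766 to 17259 in wild type (8 markers, with Lhx9 higher and Msln under the level). The sums of 6 mesonephros and duct markers, Wnt9b among them, overlapped (3615 to 4862 in knockout, against 3708 to 4243 in wild type), and so did those of 7 germ cell markers (12081 to 16312 in knockout, against 11408 to 13728 in wild type). The log2 difference between the 3' and 5' Gapdh control probe sets was 1.13 to 1.52 in knockout, against 0.99 to 1.30 in wild type. For the Actb control probe sets it was larger, 2.45 to 2.75 in knockout, against 2.28 to 2.74 in wild type.

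The counts of WNT genes that passed are given beside the shares of all tested genes that did. Of the 35 tested members 2 passed the test in either direction, where 3.55% of all 11897 tested genes did. Both fell, the receptor gene Ror1 and the coreceptor gene Lrp6, and 2.27% of all genes were lower by the same rule (limma adjusted p under 0.05). Of the same 35 members 0 rose, where 1.28% of all genes did. At an unadjusted p under 0.05, 3 members were higher, as were 966 of the 11897 tested genes. An unadjusted p under 0.05 was found for 7 members, where 17.4% of all genes had one. Differences ran from -0.91 to 0.56 with a median of 0.03, against a median of 0.02 over all tested genes. They were under 0.5 in size for 33 members, and for 31 the 95% interval lay within -1 to 1. Groups did not overlap for 6 members that were higher in knockout, Wnt6, Wnt9a, Fzd3, Ror2, Ctnnb1 and Nkd1, where 12.3% of all genes were, and for 3 that were lower, Fzd4, Lrp6 and Ror1, where 11.4% of all genes were. Counted in either direction, groups were apart for 23.7% of all genes. In whole ovaries, fewer cells of a type and less RNA per cell cannot be told apart.

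**Figure D1:**
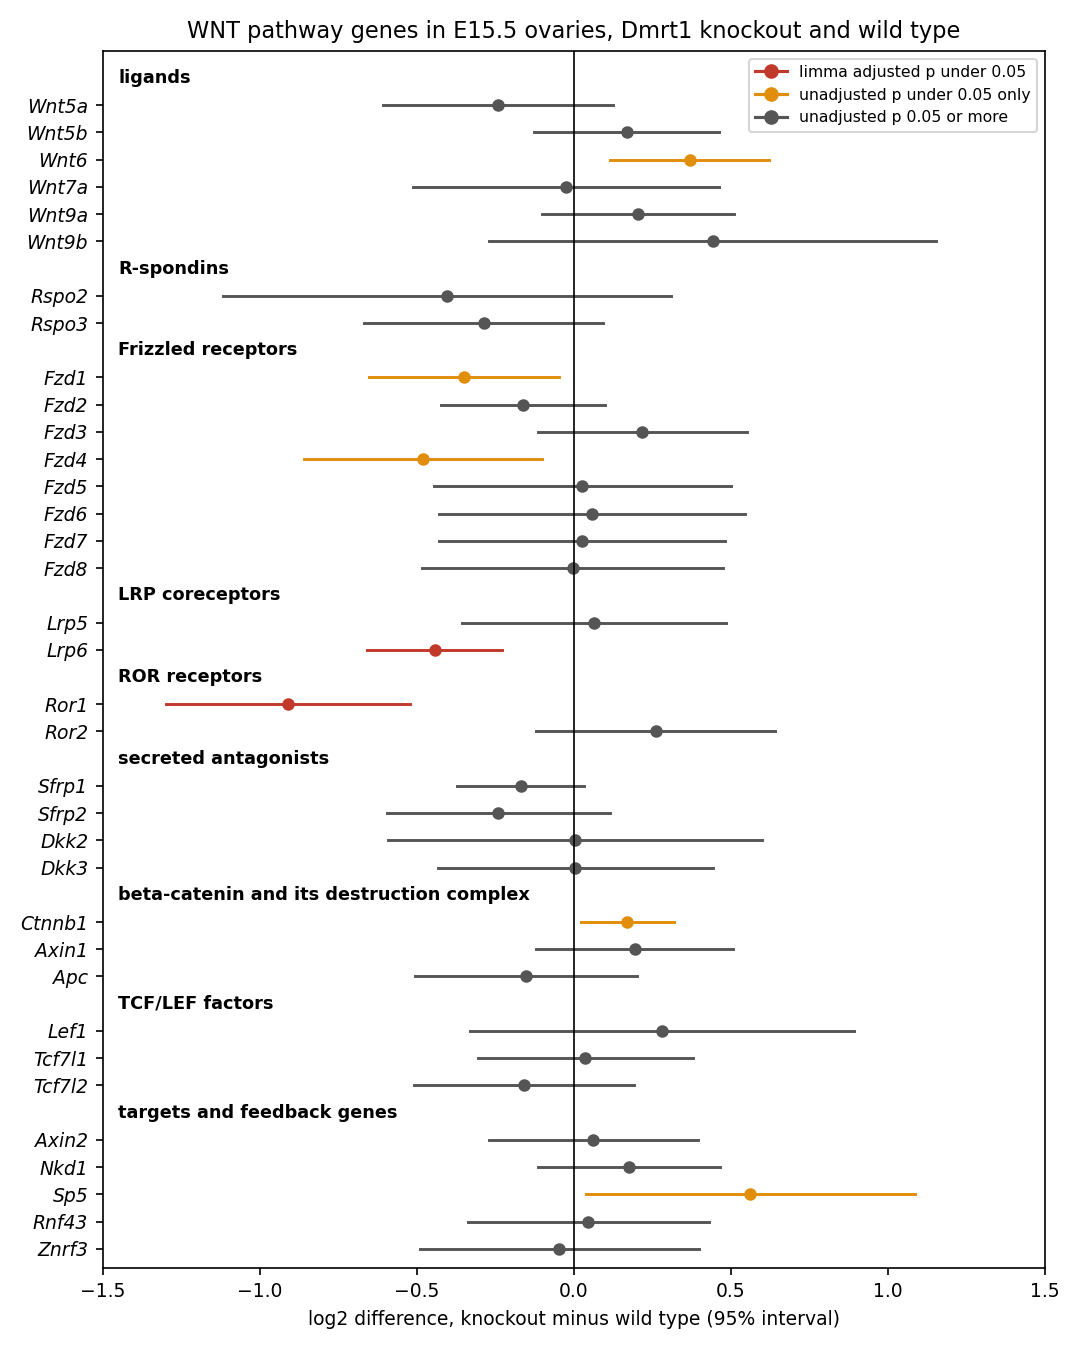
Log2 difference between knockout and wild type (x axis) for the 35 tested WNT pathway genes (y axis, by role), with limma's 95% interval. Only the intervals of Ror1 (-0.91) and Lrp6 (-0.44) belong to calls at an adjusted p under 0.05, shown in red.

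Of 12 ligands, 6 were tested, and 0 rose or fell, with 1 at an unadjusted p under 0.05. That was Wnt6, a ligand of several embryonic epithelia, which had intensities of 1454, 1407 and 1616 in knockout, against 1234, 1067 and 1166 in wild type. All 3 knockout arrays lay above all wild-type arrays. The log2 difference of 0.37 ± 0.11 (SE, n = 3 per group) did not pass (limma adjusted p = 0.0895), and its other tested probe set differed by 0.36 ± 0.15 (limma adjusted p = 0.208). Wnt9a, whose groups did not overlap either, differed by 0.21 ± 0.14 (limma adjusted p = 0.446).

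Wnt5a, the main ligand of the ROR branch, had intensities of 775, 871 and 568 in knockout, against 843, 814 and 922 in wild type. The groups overlapped, with knockout replicate 3 the lowest array. Its log2 difference was -0.24 ± 0.16 (SE, 95% interval -0.61 to 0.13, n = 3 per group, limma adjusted p = 0.457), and all 3 of its tested probe sets had a negative difference, of which 0 passed. Wnt5b differed by 0.17 ± 0.13 (limma adjusted p = 0.528).

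Wnt7a, known from the Müllerian duct, differed by -0.02 ± 0.22 on the log2 scale (limma adjusted p = 0.967). Wnt9b, a ligand of the mesonephric duct, had intensities of 82.7, 44.2 and 29.6 in knockout, against 37.0, 31.4 and 37.1 in wild type. Knockout replicate 1 stood above the other 5 arrays, and the log2 difference of 0.44 ± 0.32 (limma adjusted p = 0.487) was 0.04 without it.

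Wnt2, Wnt2b, Wnt3, Wnt7b, Wnt10b and Wnt11 lay under the filter level on all arrays. Wnt2b had intensities of 6.68, 9.02 and 9.67 in knockout, against 6.55, 8.0 and 8.66 in wild type. At such levels GCRMA values carry little information on a difference, so these 6 genes were not tested.

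R-spondins raise the response to WNT by binding LGR receptors and removing the ubiquitin ligases RNF43 and ZNRF3 from the membrane. The log2 difference of Rspo3 was -0.29 ± 0.17 (limma adjusted p = 0.387). Rspo2 passed the filter through knockout replicate 2 and wild-type replicates 1 and 3 alone, and its difference was -0.40 ± 0.32 (limma adjusted p = 0.532).

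All 8 Frizzled receptor genes were tested, and 0 rose or fell, with 2 lower at an unadjusted p under 0.05, Fzd1 and Fzd4. Fzd4, a receptor for WNT and Norrin with a known role in retinal vessels, had intensities of 348, 432 and 496 in knockout, against 687, 537 and 548 in wild type. Every knockout array lay below every wild-type array. The log2 difference was -0.48 ± 0.17 (SE, 95% interval -0.86 to -0.10, limma adjusted p = 0.138), and -0.34 without knockout replicate 1 (0.326). The summed endothelial markers were lower in knockout as well (1970 to 2583 in knockout, against 2738 to 3088 in wild type, 5 of 7 tested markers negative), and their part in the Fzd4 values was not tested.

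Fzd1 differed by -0.35 ± 0.14 (limma adjusted p = 0.174) and its groups overlapped at knockout replicate 2, with an intensity of 923, and wild-type replicate 1, with 920. The remaining 6 receptors had log2 differences of -0.16 (Fzd2) to 0.22 (Fzd3), with Fzd5, Fzd6, Fzd7 and Fzd8 at 0.03, 0.06, 0.03 and 0.00. Fzd3, best known from axon guidance, had 6 tested probe sets with differences of -0.55 to 0.29, so its direction depended on the probe set. The other tested probe set of Fzd8 gave -0.75 (limma adjusted p = 0.22).

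Lrp6, which with a Frizzled receives canonical WNT ligands, fell in the knockout ovaries. It had intensities of 2562, 2891 and 2388 in knockout, against 3435, 3549 and 3647 in wild type. The groups did not overlap, and the wild-type arrays lay close together. It was 1.36-fold lower in knockout (log2 difference -0.44 ± 0.10, SE, 95% interval -0.66 to -0.23, 3 arrays per group, limma adjusted p = 0.0218). The other tested probe set of Lrp6 gave -0.36 ± 0.21 (limma adjusted p = 0.378).

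The log2 difference of Lrp6 was -0.52 to -0.38 on leaving out any single array, and the call held without knockout replicate 2 (limma adjusted p = 0.0095). It ended without knockout replicate 1 (-0.43, 0.071) or 3 (0.054) and without wild-type replicate 1 (0.0846), 2 (0.121) or 3 (0.123). It also ended with eBayes without the intensity trend (0.083) and with averaged probe sets (0.112). Lrp5, the related coreceptor, differed by 0.06 ± 0.19 (95% interval -0.36 to 0.48, limma adjusted p = 0.888), and the difference between both genes was not tested.

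Ror1, a receptor tyrosine kinase-like protein that binds WNT5A, had the largest difference of the tested members. It had intensities of 34.6, 30.4 and 29.5 in knockout, against 61.2, 63.6 and 52.9 in wild type. Each knockout array lay well below the lowest wild-type array. It was 1.88-fold lower in knockout (log2 difference -0.91 ± 0.17, SE, 95% interval -1.30 to -0.52, n = 3 per group, limma adjusted p = 0.0112), at levels not far above the filter level of 16 intensity units. With an offset of 16 added before log2 the difference was -0.66 (limma adjusted p = 0.0098). Its other tested probe set differed by -0.44 ± 0.20 (limma adjusted p = 0.24).

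Without knockout replicate 1 the log2 difference of Ror1 was -0.98 (limma adjusted p = 0.0208). Leaving out wild-type replicate 1 (-0.88, limma adjusted p = 0.065) or 2 (-0.86, 0.0777) ended the call. Summed stroma and mesenchyme markers were lower in knockout too (34342 to 36572 in knockout, against 38943 to 43057 in wild type), and their part in the values of Ror1 and Lrp6 was not tested. Ror2, which shares WNT5A as a ligand, had intensities of 86.5, 113 and 102 in knockout, against 85.4, 80.4 and 84.0 in wild type, with the lowest knockout array just above the highest wild-type array. Its log2 difference of 0.26 ± 0.17 did not pass (limma adjusted p = 0.434).

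**Figure D2:**
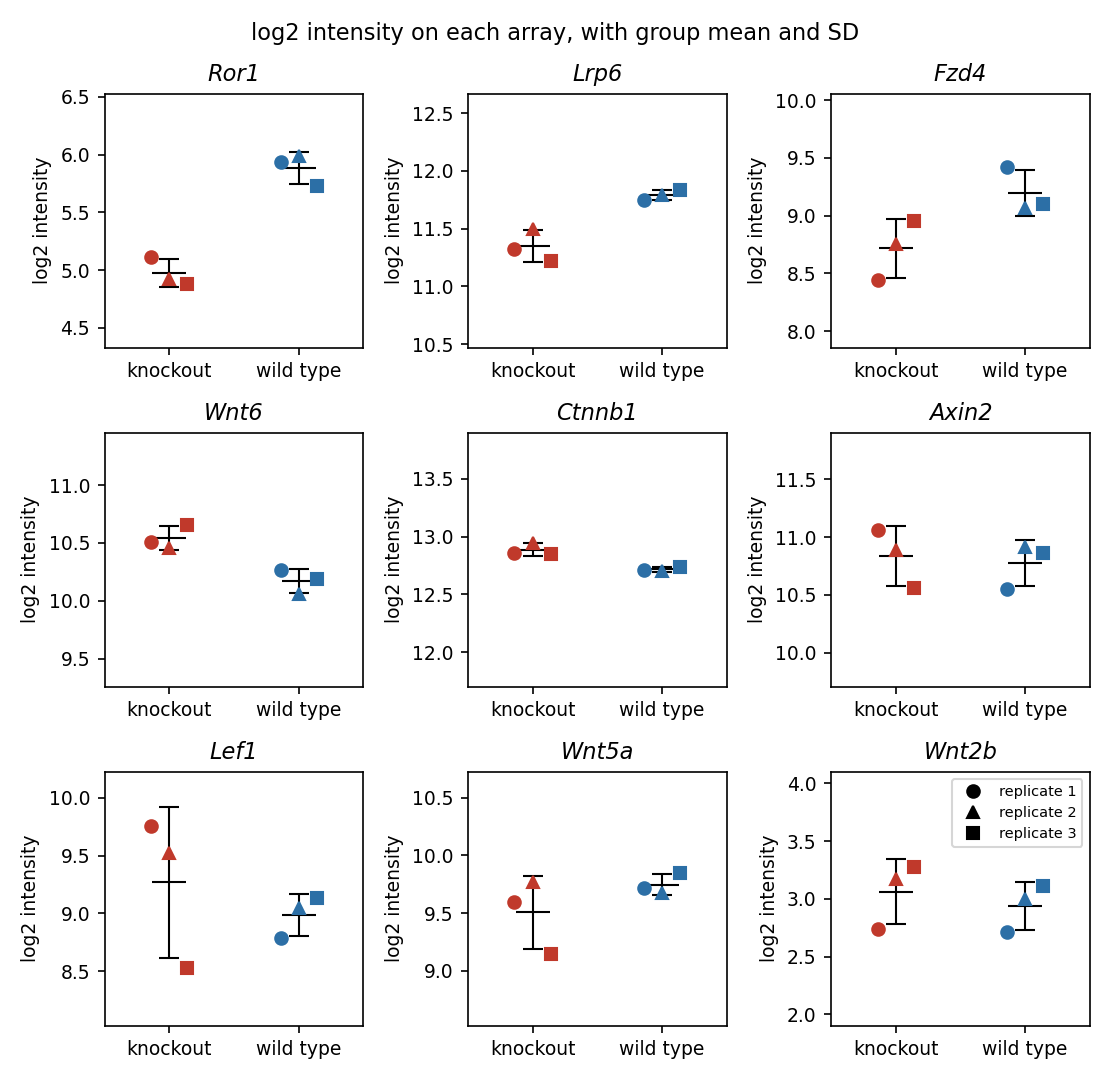
Log2 intensity (y axis) of 9 genes on each array of knockout (red, left) and wild type (blue, right), with group mean and SD (n = 3), each panel spanning the same log2 range around its own centre. Ror1, Lrp6 and Fzd4 lie lower on every knockout array, Wnt6 and Ctnnb1 lie higher, and the groups of Axin2, Lef1, Wnt5a and Wnt2b overlap.

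Secreted antagonists bind WNT proteins (the SFRP family) or the LRP coreceptors (DKK1 and DKK2), and of 6 members 4 were tested, with 0 calls through the brightest probe set and 0 at an unadjusted p under 0.05. Sfrp1, which is strongly expressed in many fetal tissues, had intensities of 3694, 4459 and 4225 in knockout, against 4429, 4762 and 4694 in wild type, so the groups overlapped. Its log2 difference was -0.17 ± 0.09 (SE, n = 3 per group, limma adjusted p = 0.332). A further probe set of Sfrp1, singled out after its values were seen, read log2 11.21, 10.99 and 11.22 on the same knockout arrays and 11.67, 11.89 and 11.77 on the same wild-type arrays. It fell by 0.64 ± 0.10 on the log2 scale (limma adjusted p = 0.00435), and this call held on leaving out any single array (0.00869 to 0.0426). All 5 tested probe sets of Sfrp1 had a negative difference, from -0.74 to -0.17.

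Sfrp2 differed by -0.24 ± 0.16 (limma adjusted p = 0.445). Dkk2 and Dkk3 differed by 0.01 ± 0.27 and 0.00 ± 0.20 (limma adjusted p = 0.994 and 0.993). Dkk1 and Sfrp4 lay under the filter level on all 6 arrays.

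Ctnnb1, which encodes beta-catenin, had intensities of 7444, 7909 and 7378 in knockout, against 6700, 6655 and 6835 in wild type. The knockout arrays were all higher, by a small margin. The log2 difference was 0.17 ± 0.07 (SE, 95% interval 0.02 to 0.32, n = 3 per group, limma adjusted p = 0.176). Its other 2 tested probe sets gave -0.13 and -0.84 (limma adjusted p = 0.722 and 0.182), and with averaged probe sets the difference was -0.27 (0.425). The direction for Ctnnb1 thus depended on the probe set.

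Axin1 and Apc encode scaffolds of the destruction complex. Axin1 differed by 0.19 ± 0.14 on the log2 scale (limma adjusted p = 0.492). For Apc the difference was -0.15 ± 0.16 (limma adjusted p = 0.647), and its 3 tested probe sets ran from -0.70 to -0.15.

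TCF and LEF factors carry beta-catenin to DNA, and 3 members of the family were tested with 0 calls and 0 at an unadjusted p under 0.05. Lef1, itself a WNT target in many tissues, had intensities of 864, 736 and 368 in knockout, against 441, 529 and 560 in wild type. Knockout replicates 1 and 2 were above all wild-type arrays and knockout replicate 3 was below them. The log2 difference was 0.28 ± 0.27 (SE, 95% interval -0.33 to 0.89, limma adjusted p = 0.623). It was 0.04 without knockout replicate 1 (0.96) and 0.65 without knockout replicate 3, where Lef1 passed (0.0434). Tcf7l1 differed by 0.04 ± 0.15 and Tcf7l2 by -0.16 ± 0.16 (limma adjusted p = 0.924 and 0.626).

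The 5 target and feedback genes gave 0 calls, with 1 at an unadjusted p under 0.05. Axin2, a direct beta-catenin target that feeds back on the destruction complex, had intensities of 2139, 1900 and 1506 in knockout, against 1496, 1932 and 1858 in wild type. The groups overlapped over most of their range. The log2 difference was 0.06 ± 0.15 (SE, 95% interval -0.27 to 0.40, n = 3 per group, limma adjusted p = 0.86).

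Sp5, a transcription factor gene induced by beta-catenin whose promoter window is printed above, had intensities of 367, 214 and 349 in knockout, against 252, 201 and 167 in wild type. Knockout replicates 1 and 3 were above all other arrays and knockout replicate 2 lay within the wild-type range. The log2 difference of 0.56 ± 0.24 (SE, 95% interval 0.04 to 1.09) did not pass (limma adjusted p = 0.21). It was 0.42 without knockout replicate 1 (0.428) and 0.81 without knockout replicate 2, where Sp5 passed (0.0459).

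Nkd1, a feedback inhibitor that binds Dishevelled, differed by 0.18 ± 0.13 (limma adjusted p = 0.5) with groups that did not overlap, and its 4 tested probe sets were all positive, from 0.18 to 0.64, with 0 past the threshold. Rnf43 and Znrf3, the ubiquitin ligases that clear Frizzled receptors, differed by 0.05 ± 0.17 and -0.05 ± 0.20 (limma adjusted p = 0.915 and 0.93).

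**Figure D3:**
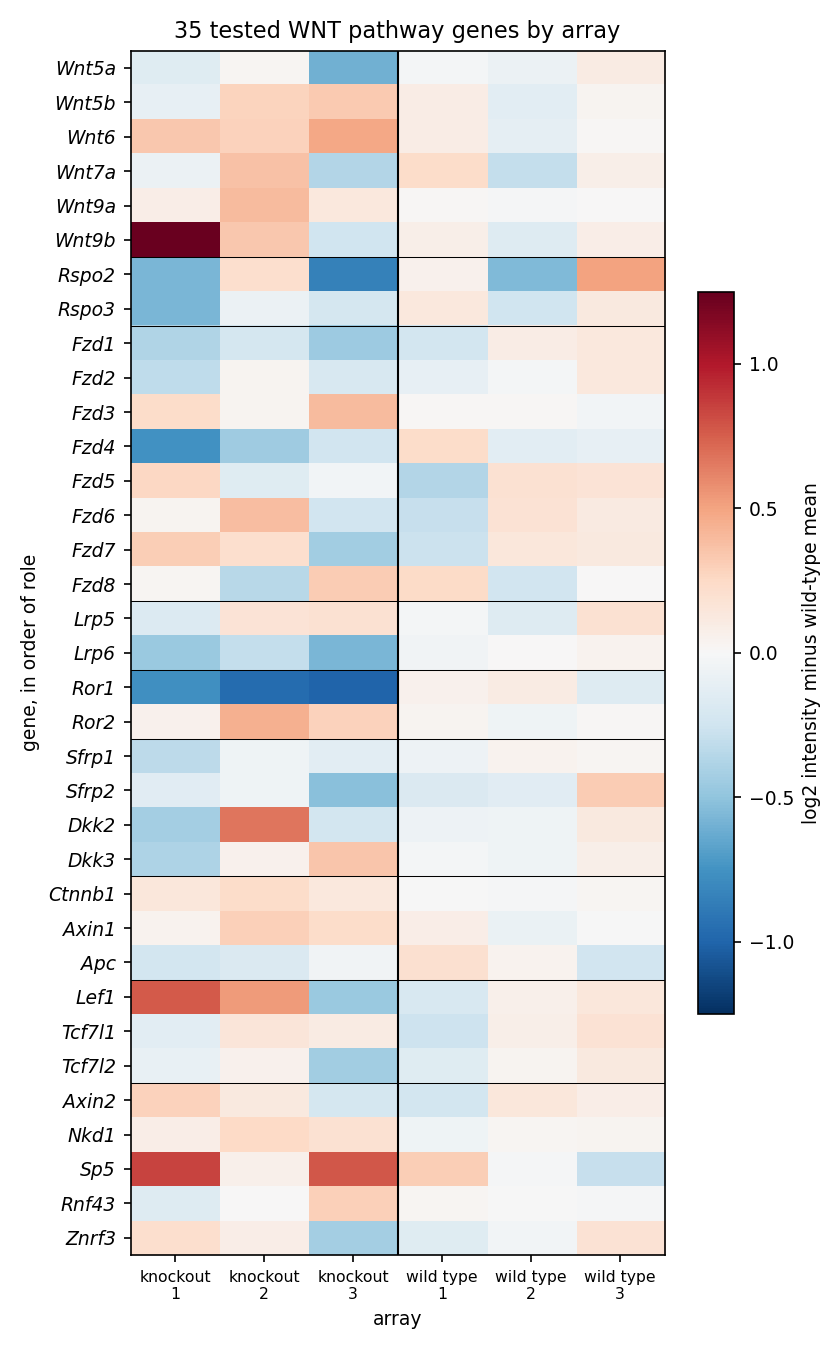
Log2 intensity minus the wild-type mean (colour) of the 35 tested genes (rows, by role) on each array (columns, knockout left of wild type). Ror1 and Lrp6 are lower on all 3 knockout arrays, while Lef1, Wnt9b, Dkk2 and Sp5 differ among the knockout arrays. Rspo2, near the filter level, differs among the arrays of both groups.

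Many of these genes were read by more than 1 probe set. The 43 members had 96 probe sets that name them alone, of which 63 were tested, and 0 of the 63 rose and 3 fell (limma adjusted p under 0.05), with 17 at an unadjusted p under 0.05, of which 12 were lower in knockout. Over all 22040 tested probe sets, 1.46% rose and 5.15% fell, 20.7% had an unadjusted p under 0.05, and 13.1% had one and were lower. Of the 16 members with 2 or more tested probe sets, 8 had only negative differences, 3 only positive ones (Nkd1, Wnt5b and Wnt6) and 5 had both signs (Axin1, Ctnnb1, Dkk3, Fzd3 and Tcf7l1). Among the 28 probe sets other than the brightest, 20 had a negative difference. No matching share over all genes is given for these signs, so they are not read as a trait of the members. With the probe sets of each gene averaged, Ror1 (-0.68, limma adjusted p = 0.0602) and Lrp6 (-0.40, 0.112) no longer passed.

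**Figure D4:**
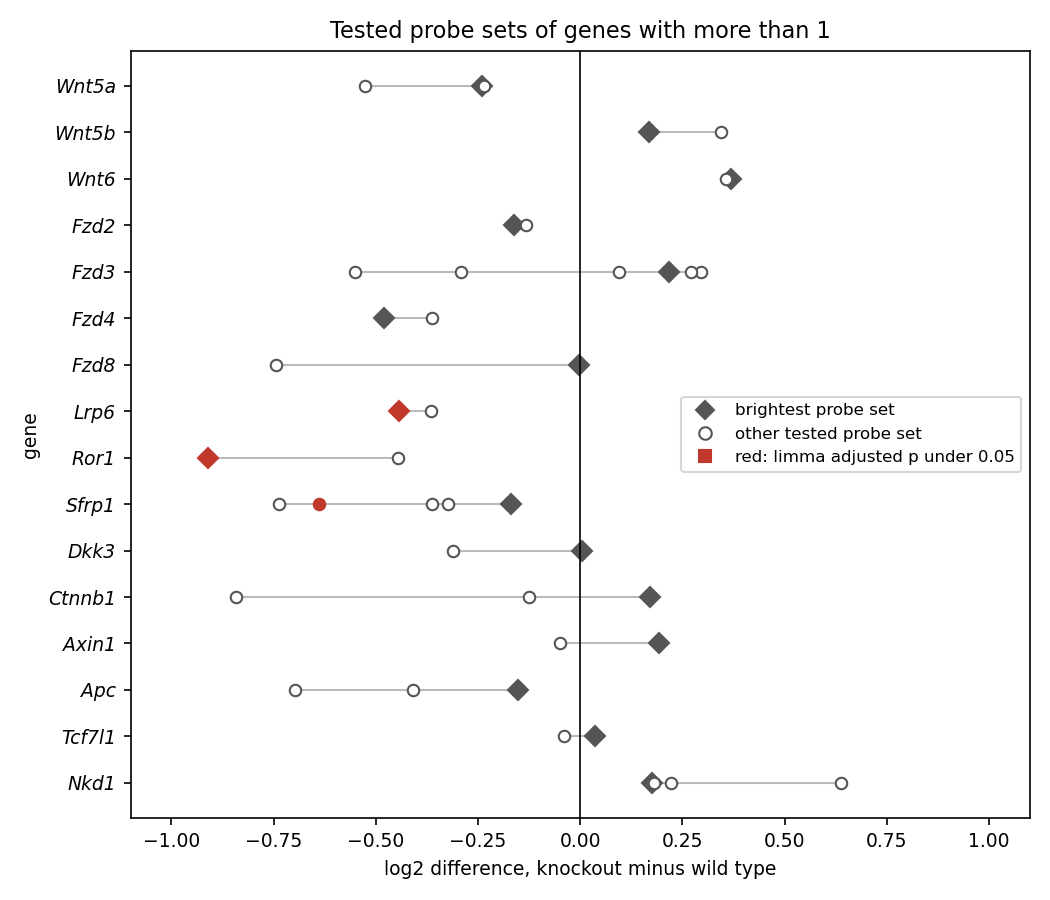
Log2 difference between knockout and wild type (x axis) of every tested probe set for the 16 genes with more than 1 (y axis). Diamonds mark the brightest probe set, circles the others, and red an adjusted p under 0.05, which 3 probe sets of Lrp6, Ror1 and Sfrp1 reached.

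Further genes of the pathway were taken from lists of other ligands and secretion genes, receptors, inhibitors, transducers, planar polarity genes and targets. Of 94 listed genes 65 were tested, 0 rose and 2 fell, Macf1 and Tbx3, with 7 at an unadjusted p under 0.05 and a median log2 difference close to 0. The 7 include Cthrc1, which is under the filter level in knockout. Over all tested genes 2.27% fell and 17.4% had an unadjusted p under 0.05. Macf1, a cytoskeletal linker reported to act with AXIN and LRP6 in mouse, had intensities of 3353, 3005 and 2749 in knockout, against 4087, 4058 and 4492 in wild type. The groups did not overlap. It was 1.39-fold lower in knockout (log2 difference -0.48 ± 0.10, SE, limma adjusted p = 0.0163). The difference was -0.83 with averaged probe sets. It was -1.73 with the _s, _x and _a probe sets removed, where another probe set of Macf1 was read. The call held without knockout replicate 1 (-0.55, limma adjusted p = 0.0169) and ended without any one of the wild-type arrays (0.0722 to 0.106) and with eBayes without the trend (0.0741).

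Tbx3, a T-box factor and WNT target, had intensities of 606, 712 and 581 in knockout, against 1001, 839 and 912 in wild type. It was 1.45-fold lower in knockout (log2 difference -0.54 ± 0.13, limma adjusted p = 0.0422), again without overlap. The call held without knockout replicate 2 (0.0267) and ended without knockout replicate 1 (-0.51, 0.111) or any one of the other 4 arrays (0.087 to 0.186). It also ended with the stricter filter (0.0503), median centring (0.05), eBayes without the trend (0.0622) and averaged probe sets (0.0617).

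Rspo1, the R-spondin of ovarian differentiation, had intensities of 1425, 1530 and 1671 in knockout, against 1285, 1291 and 1359 in wild type, all 3 knockout arrays being higher. Its log2 difference of 0.23 ± 0.11 did not pass (limma adjusted p = 0.259). Wnt4 had intensities of 890, 855 and 1475 in knockout, against 1372, 1040 and 935 in wild type, and differed by -0.08 ± 0.22 (0.874). Lgr5, an R-spondin receptor and WNT target, had intensities of 141, 89.7 and 81.5 in knockout, against 85.1, 133 and 86.5 in wild type, and differed by 0.03 ± 0.25 (0.968). The groups of Wnt4 and Lgr5 overlapped.

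Among ligand and secretion genes, Porcn, which encodes the enzyme that adds a lipid to WNT proteins, differed by 0.66 ± 0.21 with groups that did not overlap, and did not pass (limma adjusted p = 0.0949). Its intensities, not far above the filter level of 16, were 39.2, 35.1 and 38.8 in knockout, against 18.2, 25.6 and 28.9 in wild type. With an offset of 16 added before log2 the Porcn difference was 0.42 (limma adjusted p = 0.0826). Of the receptors Ryk (0.13), Kremen1 (-0.11) and Lgr4 (0.05) and of the inhibitors Notum (0.39) and Tpbg (-0.15), 0 passed (limma adjusted p = 0.356 to 0.896). Cthrc1, a further gene listed with the inhibitors, passed the filter through its wild-type arrays alone. It had intensities of 14.1, 14.6 and 13.1 in knockout, all under the filter level, against 19.2, 18.8 and 17.9 in wild type. It did not pass the test (limma adjusted p = 0.179). The transducers Ctnnbip1 (0.52), which keeps beta-catenin from TCF factors, and Csnk1e (0.57), a kinase that acts on Dishevelled, did not pass (0.219 and 0.289). Nor did the polarity genes Prickle2 (-0.39), Daam1 (-0.26) and Daam2 (-0.18) (0.217 to 0.469) or the targets Bmp4 (-0.47) and Ccnd1 (-0.34) (0.0952 and 0.298). Ccnd1 had intensities of 1564, 1039 and 984 in knockout, against 1543, 1584 and 1339 in wild type. Without knockout replicate 1 it passed as lower in knockout (limma adjusted p under 0.05), a call singled out after the values were seen.

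**Figure D5:**
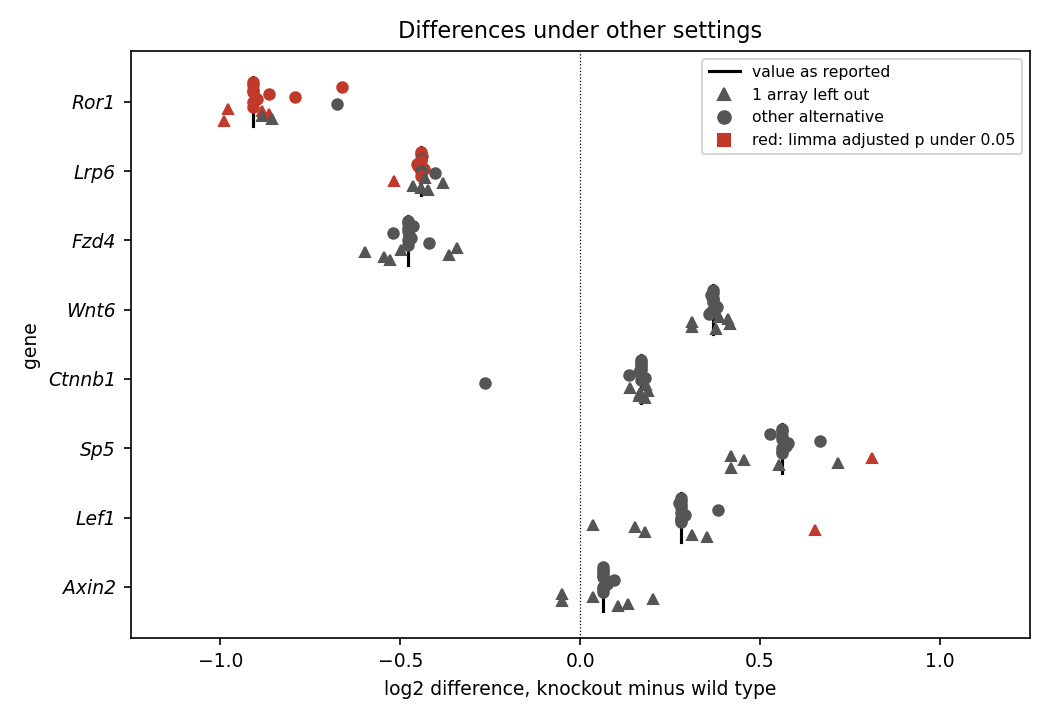
Log2 difference between knockout and wild type (x axis) of 8 genes (y axis) as reported (bars), with 1 array left out (triangles) and under the other settings (circles), in red at an adjusted p under 0.05. Ror1 and Lrp6 stay below 0 throughout, and Sp5 and Lef1 each turn red at 1 point, without knockout replicate 2 (0.81) and without knockout replicate 3 (0.65).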

How the data were processed

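The deposited table holds intensities on a linear scale, 1 column per array. The authors made them with GCRMA, per the submitters' processing notes, which adjusts background by probe base composition, normalizes between arrays and presses dim probe sets towards a floor. Build, version and settings are not given in the sources used here, and the number of arrays limits the precision.

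Intensities were taken to log2 without an offset. Of 45101 probe sets, 64 controls were left out and 22040 passed the filter and were tested. Symbols came from the platform annotation, with 0 changed on update through a RefSeq table of GRCm38.p6. The comparison used limma 3.58.1 under R 4.3.3, with genotype in the model and no other term, by lmFit and by eBayes with its trend option. The p-values, from both tails, were corrected after Benjamini and Hochberg across every tested probe set, and 0.05 was the threshold. The SE of a difference is the moderated one that limma gives. The code was tested on simulated data.

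The members, gene lists and tests were chosen with earlier results of these data known. Array values were given for members past the threshold, members with an unadjusted p under 0.05 and no overlap, and Ctnnb1, Axin2, Lef1, Wnt5a and Wnt2b, and those of Wnt9b, Fzd1, Ror2, Sfrp1 and Sp5 were added after their values were seen. Other pathway genes named are those past the threshold, the 3 of each list with the smallest p, and Wnt4, Rspo1 and Lgr5. No pair of arrays held identical values. Alternatives changed the filter, offset, eBayes options, array weights, normalization, replicate block, probe set choice and threshold, and left out each array in turn. Markers of germ cells, leukocytes, red cells (4 genes, of which Slc4a1 fell, summed intensity 320 to 485 in knockout, against 481 to 1288 in wild type) and Sertoli and Leydig cells (7 genes, 661 to 1111 in knockout, against 1063 to 1171 in wild type) had groups that overlapped.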

Additional observations from a re-analysis of the deposited data

How the results depend on the processing

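Among the members, 0 rose under every alternative run except a threshold of 0.1 (1, Wnt6) and 2 of the fits without 1 array, and the count that fell was 2 with no filter, the stricter filter, the offset, robust eBayes, array weights, quantile normalization, median centring and with _s, _x and _a probe sets left out. It was 1 with eBayes without the trend and 1 with the replicate number as a block, where Ror1 alone passed, 0 with averaged probe sets, and 3 with every probe set counted separately, an alternative chosen after seeing the data. Of the other pathway genes, the count that fell was 1 with the stricter filter and with median centring and 0 with eBayes without the trend and with the block. With no filter Celsr3 also fell, a gene under the filter level on all 3 knockout arrays. With averaged probe sets Macf1 and Fbxw11 passed and Tbx3 did not. At a threshold of 0.1, 1 rose (Porcn) and Bmp4 fell besides Macf1 and Tbx3. Over all genes, 380 rose with no filter, 235 with array weights and 331 at a threshold of 0.1, and 83 rose and 137 fell with the block, against 152 that rose and 270 that fell as reported, and 507 fell at a threshold of 0.1. Leaving out 1 array in turn gave 0 to 1 members that rose, 0 to 2 that fell, 0 to 2 other pathway genes that fell, 38 to 190 genes that rose and 61 to 311 that fell. The causes of these shifts were not tested. The replicate numbers did not pair the arrays: the deviations of same-numbered arrays from their group means correlated at -0.165, -0.248 and -0.168, and no array correlated best with the one of its own number (the 3 highest correlations, 0.238 to 0.336, joined differently numbered arrays). With the block the adjusted p was 0.0793 for Lrp6, 0.0623 for Macf1 and 0.133 for Tbx3. The sign of Ror1 and Lrp6 was negative under all 18 alternatives, and they passed in 15 and 10 of them. Dim probe sets near the floor limit what can be said of the 8 members under the filter level, and 3 arrays per group limit what can be said of differences as small as those of Axin2 or Ctnnb1.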

Other observations

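The spread among the knockout arrays was the larger one for most WNT genes. Of the 35 tested members 28 had a larger SD in knockout than in wild type (80%), and 69.8% of all 11897 tested genes did. The median SD of log2 intensity was 0.23 in knockout and 0.14 in wild type for the members, and 0.20 in knockout and 0.13 in wild type for all genes. Knockout replicate 3 was the lowest knockout array for 15 of the 35 members, among them Lef1, Axin2, Znrf3, Tcf7l2, Fzd7 and Wnt5a, knockout replicate 1 for 15 others, among them Fzd4, Rspo3, Sfrp1 and Dkk3, and knockout replicate 2 for 5. The wild-type arrays were split alike: replicates 1 and 2 were each the lowest of their group for 15 members and replicate 3 for 5. The named genes were picked after their values were seen, and no test was made.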
